A study of Mus musculus with 2 samples.

Results

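Animal cells build cholesterol and fatty acids from acetyl-CoA, and a common set of transcription factors, the sterol regulatory element-binding proteins (SREBPs), switches the genes of both routes on when membrane sterol runs low. The SREBP precursors sit in the endoplasmic reticulum bound to Scap, which escorts them to the Golgi for cleavage, while the Insig proteins hold Scap back when sterol is plentiful. T cells draw on both routes for membrane when they leave the resting state and divide. The account below follows 34 genes of this system in spleen T cells: 8 genes of the mevalonate route (from acetyl-CoA to isoprenoid units), 10 of the sterol route proper, 5 regulators (Srebf1, Srebf2, Scap, Insig1 and Insig2), the sterol transporter Stard4, and 10 genes of fatty acid synthesis, elongation and desaturation. The set was chosen after earlier results of these data had shown low values of Idi1 and Cyp51 4 h after treatment, so the members were selected on the comparison of 4 h with saline. What they do in that comparison is a description, and nothing is supported with it.

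The cells came from female mice, given as C57/BL6N or C57BL/6 in different labels, in 3 groups of 3 animals each. A control group received saline and is labelled 0 h, and the spleens of the treated groups were collected 4 h or 8 h after 6 mg/kg remimazolam. Remimazolam is a short-acting benzodiazepine sedative that acts on the GABA(A) receptor. All 3 mice of one treatment share a sample tag, a barcode carried on an antibody, and the 3 pools went into a single capture on the BD Rhapsody platform, so each treatment is 1 pool, mice cannot be told apart, and no saline pool stands beside the 4 h and 8 h times. On the sort the labels disagree, naming CD45+CD3+CD5+ in one entry but CD45+ alone in a different entry. There is no replicate check of any difference between treatments and therefore no test. Intervals in the text are exact 95% intervals that cover counting error only.

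T cells were taken by their own transcripts, which gave 4973 control, 5079 4 h and 5076 8 h cells, between 93.5% and 94.4% of the kept cells of a pool. Their summed molecules lay between 13628167 and 13883132 per pool, the median molecules per cell between 2528 and 2547, and the median mitochondrial share between 9.76% and 9.96%. All 6 T cell markers were present in every pool, with Trac, the T cell receptor alpha constant gene, between 1861 and 1953 CPM (molecules scaled to a total of 1000000 for the pool). Of the B cell genes, Cd79a stood between 2.94 and 3.32 CPM and Cd79b between 6.49 and 8.14 CPM. Of the markers of other cells, the 3 neutrophil genes moved most, with summed levels of 0.807 CPM in control, 10.1 CPM at 4 h and 2.89 CPM at 8 h and none of the 3 at 0. The 8 memory genes together stood at 1096, 1344 and 1223 CPM, and the 16 cycling genes at 250.9, 301.4 and 261.2 CPM.

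All 34 genes were found among the 19837 genes of the files. In T cells 32 of them had at least 50 molecules. Scd1 had 8 molecules over the 3 pools and Fads2 had 0 of 41373779, where the 3 molecules taken as the limit for a count of 0 correspond to 0.0725 CPM. The most molecules came from Elovl5, which lengthens polyunsaturated fatty acids, with 6598, followed by Srebf2, the SREBP that drives sterol genes, with 5416, and Acly, which makes cytosolic acetyl-CoA from citrate, with 4052. The fewest among the 32 came from Fdps, the farnesyl diphosphate synthase, with 86. Levels of different genes are not compared here, since capture per gene differs.

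SREBPs bind a sterol element that is usually found beside boxes for the factors NF-Y and Sp1, so the promoters of the genes that carry the results are shown first. RefSeq promoters (GRCm38.p6, 250 bases before to 50 after a start) were at hand for 27 of the 34 genes, with 35 promoters in all. The stretches below run 5′ to 3′ on the gene's strand and end before its start, and capitals mark a match to the sterol element TCACNCCAC, its core CACCCCA, or the NF-Y box CCAAT, which on the opposite strand reads ATTGG. Hmgcs1 and Srebf2 are shown for the sterol element and its core, and Mvk, Idi1, Cyp51, Msmo1 and Insig1 because their transcripts were lower at 4 h. The windows of Idi1, Cyp51 and Msmo1 lie before the RefSeq start but inside the gene as GENCODE M21 draws it.
Hmgcs1, chr13:119690181-119690330, plus strand: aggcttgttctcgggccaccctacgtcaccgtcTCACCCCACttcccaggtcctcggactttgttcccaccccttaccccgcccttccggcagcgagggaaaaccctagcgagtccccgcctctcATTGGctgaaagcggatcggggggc
Srebf2, chr15:82147088-82147158, plus strand: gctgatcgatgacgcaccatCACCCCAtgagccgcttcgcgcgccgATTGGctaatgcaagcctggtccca
Mvk, chr5:114444119-114444268, plus strand: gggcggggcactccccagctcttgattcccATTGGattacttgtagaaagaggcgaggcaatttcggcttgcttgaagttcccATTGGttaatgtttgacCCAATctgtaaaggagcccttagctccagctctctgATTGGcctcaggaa
Idi1, chr13:8885580-8885605, plus strand: gtccaaggtgccATTGGctggcgacc
Cyp51, chr5:4104709-4104738, minus strand: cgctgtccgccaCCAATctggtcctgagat
Msmo1, chr8:64733616-64733645, minus strand: gagtggggcggaCCAATtacgacaggcgag
Insig1, chr5:28071176-28071220, plus strand: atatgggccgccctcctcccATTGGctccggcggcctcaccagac

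With a match on either strand counted, the NF-Y box lay in 65.7% of the 35 promoters of the set, against 37.4% of all 32851 promoters of the same length. The Sp1 box GGGCGG lay in 71.4% against 35.7%, and the E-box CACGTG, which SREBPs can also bind, in 20% against 7.15%. The full sterol element lay in 1 promoter, that of Hmgcs1 (2.86% against 1.24% of all), and its core in 3 promoters (8.57% against 7.62%), where the Hmgcs1 match of the core lies inside the full element. All 5 genes shown as lower at 4 h held both an NF-Y box and an Sp1 box. Of the 27 genes of the set with a promoter, 22 held an NF-Y box and 21 an Sp1 box, and the share with both was not counted. Sqle, also lower at 4 h, had no promoter at hand. None of those 5 held the sterol element in this window, which says only that these letters are not there. The Mvk stretch carries 4 NF-Y boxes within 150 bases. These matches describe letters, not bound sites.

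Comparing 4 h with saline asks how T cell transcripts stood soon after the drug. A gene was counted as lower or higher when both pools together held at least 50 molecules, the ratio of CPM was at least 1.2-fold and its interval left out 1. In the 4 h pool 6 of the 32 genes were counted as lower and 2 as higher, beside 1.54% lower and 3.92% higher of all 10266 genes measured this way. Since the set was picked on this contrast, the comparison of the 2 shares is not read further. The median log2 ratio was -0.10 over the 32 genes and 0.02 over all genes. The lower genes were Sqle, Mvk, Idi1, Cyp51, Insig1 and Msmo1, and the higher ones Elovl6 and Acaca.

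**Figure D1:**
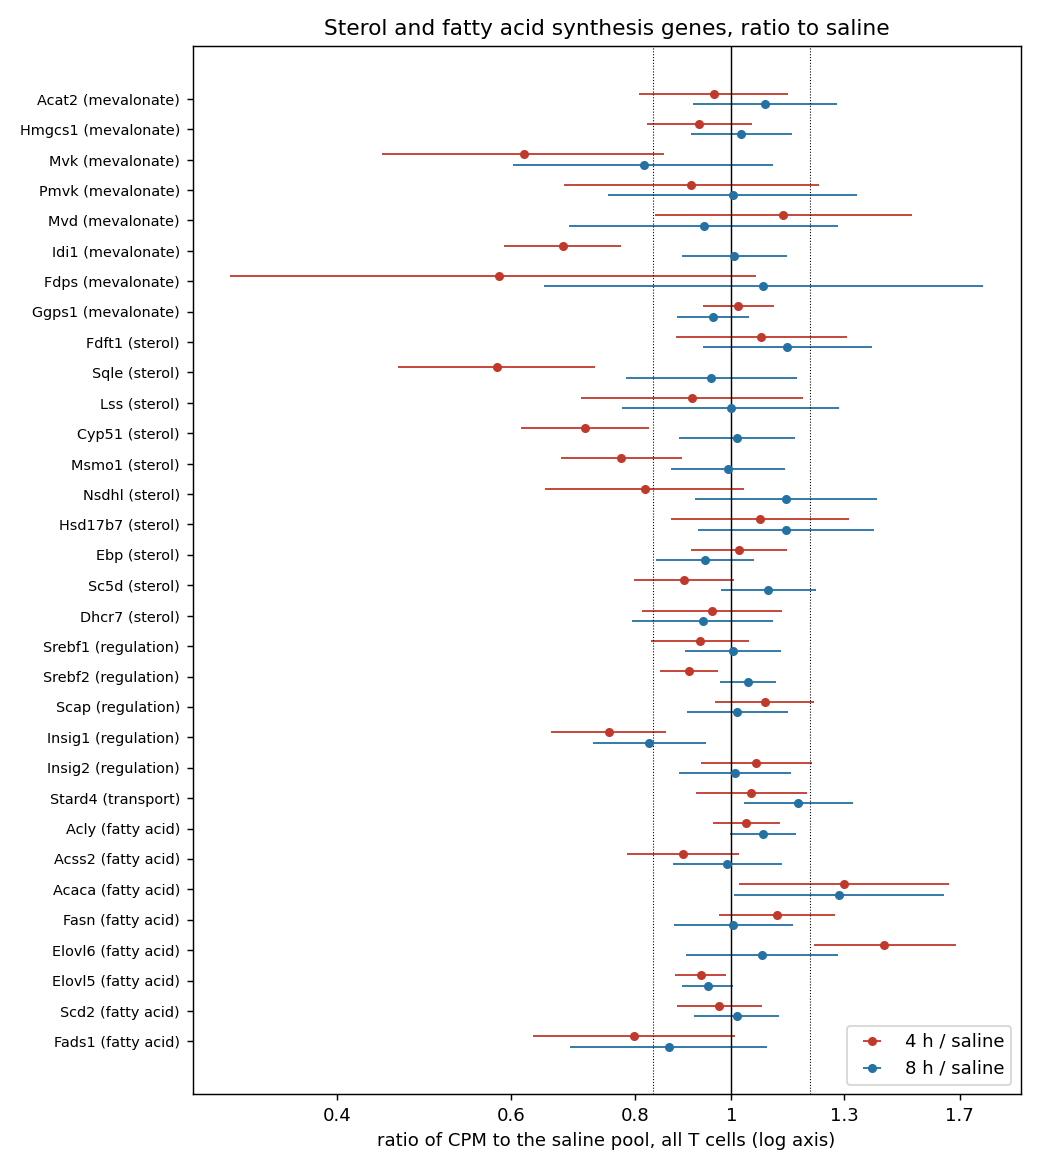
Ratio of CPM to the saline pool on a log axis for the 32 genes with at least 50 molecules, at 4 h (red) and 8 h (blue), in all T cells; bars are 95% counting intervals, and dotted lines mark 1.2-fold either way. Idi1, Sqle, Cyp51 and Msmo1 lie left of 1 at 4 h (ratios 0.676, 0.580, 0.712 and 0.775) and near 1 at 8 h, while Elovl6 lies right of 1 at 4 h (1.43).

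In the mevalonate route, Idi1 (chr13:8885501-8892451), which isomerises isopentenyl diphosphate, stood at 38.9 CPM in control, 26.3 CPM at 4 h and 39.2 CPM at 8 h. Its ratio of 4 h to saline was 0.676 (95% interval 0.590 to 0.774). The 4 h pool was therefore the low one and the other pools were within 1% of each other, with a ratio of 8 h to saline of 1.01 (0.892 to 1.14). Mvk (chr5:114444269-114460591), the mevalonate kinase, stood at 7.34, 4.54 and 5.99 CPM in the same order, a 4 h ratio of 0.618 (0.444 to 0.856) and an 8 h ratio of 0.816 (0.602 to 1.1). Fdps, the next enzyme after Idi1, had few molecules and levels of 2.35, 1.37 and 2.52 CPM, with a 4 h ratio of 0.583 whose interval (0.312 to 1.06) holds 1. The other 5 genes had 4 h ratios between 0.912 (Pmvk, phosphomevalonate kinase) and 1.13 (Mvd, which decarboxylates mevalonate diphosphate). Hmgcs1, which condenses acetyl groups at the head of the route, had 40.7, 37.7 and 41.6 CPM and a 4 h ratio of 0.928 (0.822 to 1.05). Summed over the 8 genes the level was 206.9 CPM in control, 188.4 CPM at 4 h and 204.7 CPM at 8 h.

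In the sterol route, Sqle (chr15:59315077-59331192), the squalene epoxidase, had the lowest 4 h ratio of the 32 genes, with 15.3 CPM in control, 8.86 CPM at 4 h and 14.6 CPM at 8 h. The 4 h ratio was 0.580 (0.461 to 0.729) and the 8 h ratio 0.955 (0.783 to 1.16). Cyp51 (chr5:4081145-4104746), the lanosterol demethylase, followed the same order with 31.5, 22.4 and 31.9 CPM and a 4 h ratio of 0.712 (0.613 to 0.825). Msmo1 (chr8:64718139-64733792), the sterol C4-methyl oxidase that acts after Cyp51, had 33.4, 25.9 and 33.1 CPM and a 4 h ratio of 0.775 (0.673 to 0.891). For all 3 the control and 8 h pools lay close together and the 4 h pool lay below both. The remaining 7 genes of the route were not counted at 4 h. Nsdhl, a dehydrogenase that acts on the C4 carbon, missed the rule by its interval alone, at 0.818 (0.649 to 1.03). Sc5d, the lathosterol oxidase, was at 0.896 (0.798 to 1.01). Fdft1, Hsd17b7 and Ebp lay between 1.02 and 1.07, and Lss and Dhcr7 at 0.913 and 0.956. The 10 genes together summed to 243.5 CPM in control, 214.5 CPM at 4 h and 248.3 CPM at 8 h, a summed 4 h ratio of 0.881 (0.838 to 0.926).

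**Figure D2:**
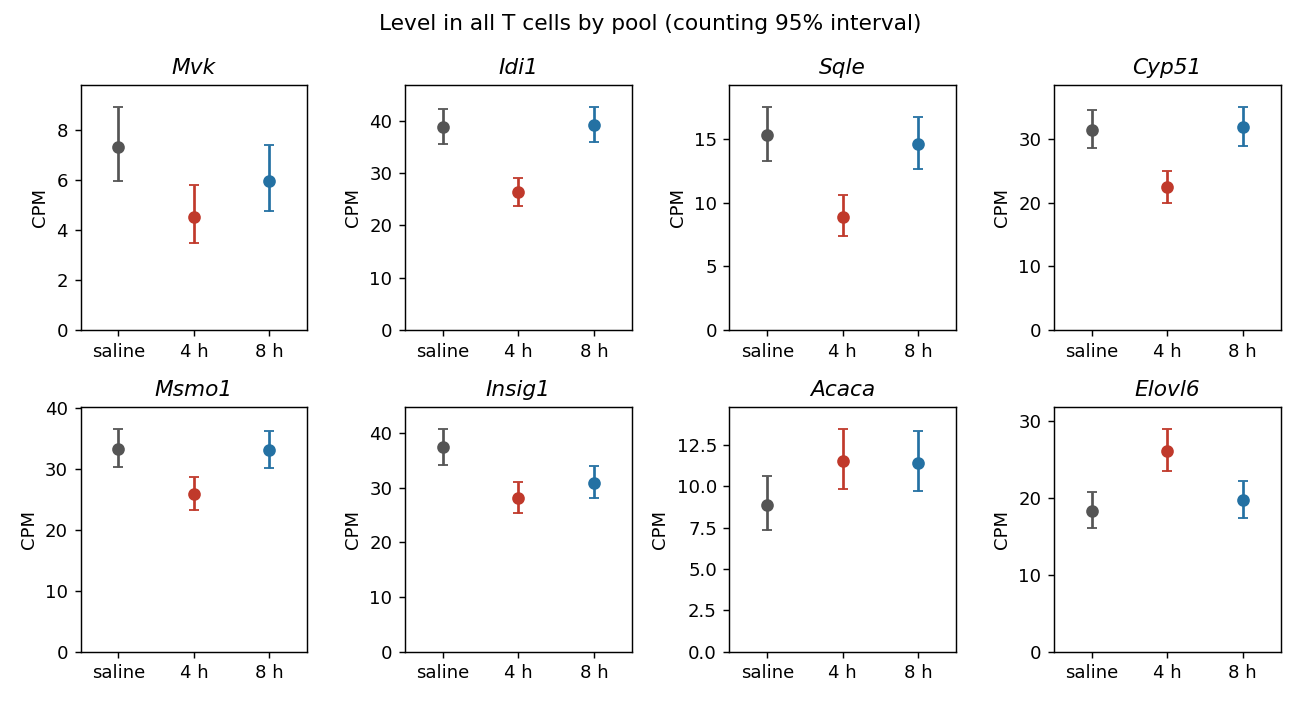
Level in all T cells (CPM, linear axis from 0) by pool for the 8 genes counted as lower or higher at 4 h; points are the single pool of 3 mice and bars are 95% counting intervals. Idi1, Sqle, Cyp51 and Msmo1 dip at 4 h only, Insig1 is low at both times, and Elovl6 peaks at 4 h (26.1 CPM against 18.3 CPM in control).

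Among the regulators, Insig1 (chr5:28071363-28078662), itself an SREBP target and the brake on Scap, stood at 37.3 CPM in control, 28.1 CPM at 4 h and 30.9 CPM at 8 h. Its ratios were 0.752 (0.657 to 0.860) at 4 h and 0.827 (0.725 to 0.942) at 8 h. It was counted as lower at both times. None of the enzymes above was counted as lower at 8 h, though Mvk had a similar 8 h ratio of 0.816 (0.602 to 1.1) on fewer molecules. Its relative Insig2 had ratios of 1.06 (0.932 to 1.2) and 1.01 (0.886 to 1.15). Srebf2 stood at 133.3, 120.9 and 138.6 CPM, and its 4 h ratio of 0.907 (0.848 to 0.969) left out 1 but fell short of 1.2-fold. Srebf1, the SREBP best known for fatty acid genes, had a 4 h ratio of 0.930 (0.829 to 1.04), and Scap one of 1.08 (0.963 to 1.21). Stard4, which carries cholesterol between membranes, had 33.8, 35.4 and 39.5 CPM, with an 8 h ratio of 1.17 (1.03 to 1.33) that also stayed under 1.2-fold.

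Of the 8 measured fatty acid genes 2 were counted as higher at 4 h and 0 as lower, beside the 3.92% and 1.54% of all genes. As a group they lay evenly about 1, with 4 above and 4 below and a summed ratio of 0.995 (0.959 to 1.03). Elovl6 (chr3:129532355-129638495), which lengthens palmitate, stood at 18.3 CPM in control, 26.1 CPM at 4 h and 19.6 CPM at 8 h, a 4 h ratio of 1.43 (1.21 to 1.68). Acaca (chr11:84129672-84401651), the acetyl-CoA carboxylase that commits carbon to fatty acids, stood at 8.88, 11.5 and 11.4 CPM, with ratios of 1.3 (1.02 to 1.66) at 4 h and 1.28 (1.01 to 1.64) at 8 h. Over all T cells Elovl6 was high in the 4 h pool alone. The calls of Acaca end under other weightings: with each cell weighted equally its ratios were 1.2 at 4 h and 1.24 at 8 h, and with raw molecules 1.25 at 4 h, none of which met the rule. Fasn, the fatty acid synthase, had 30.4, 33.8 and 30.5 CPM and a 4 h ratio of 1.11 (0.972 to 1.27). Acly, Acss2 (acetyl-CoA from acetate), Scd2 (a stearoyl-CoA desaturase) and Elovl5 lay between 0.894 and 1.04. Fads1, the delta-5 desaturase, was at 0.798 (0.631 to 1.01) with 447 molecules, just outside the rule. Summed over the group the level was 426.5, 424.2 and 427.5 CPM.

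At 8 h against saline only Insig1 was counted as lower and only Acaca as higher of the 32 genes, beside 1.9% lower and 2.46% higher of all 10271 genes. The median log2 ratio was 0.01 over the set. Cyp51, Msmo1 and Sqle were at 1.01, 0.992 and 0.955. The control pool enters both of these comparisons.

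Set against the 4 h pool, the 8 h pool had 7 of the 32 genes higher and 1 lower, beside 1.46% higher and 3.11% lower of all 10297 genes. Because this contrast shares the 4 h pool with the one on which the set was chosen, those counts are no separate evidence. The ratios were 1.85 (1.03 to 3.41) for Fdps, 1.65 (1.31 to 2.08) for Sqle, 1.49 (1.3 to 1.71) for Idi1 and 1.42 (1.23 to 1.65) for Cyp51. Nsdhl followed with 1.39 (1.11 to 1.74), Msmo1 with 1.28 (1.11 to 1.47) and Sc5d with 1.22 (1.09 to 1.36). These belong to the steps from isopentenyl diphosphate to the late sterols, and 5 of the 7 are in the sterol route. Insig1 stayed close to its 4 h level (1.1, 0.956 to 1.26). Srebf2 had a ratio of 1.15 (1.07 to 1.23), and Elovl6 was the lower gene at 0.753 (0.641 to 0.883).

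The share of T cells with at least 1 molecule was lowest at 4 h for Idi1 and Sqle, as their summed levels were. Idi1 was seen in 7.74% of control, 5.45% of 4 h and 7.78% of 8 h cells, and Sqle in 3.46%, 1.97% and 3.17%. With every cell thinned to 1500 molecules the shares were 4.77%, 3.29% and 4.92% for Idi1 and 2.28%, 1.01% and 2.03% for Sqle, over 4743, 4840 and 4821 cells that reached this depth. For background, Scd1, which T cells all but lacked, was seen in at most 0.08% of the T cells of a pool.

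Whether the 4 h values hold within kinds of T cell was looked at in classes gated on lineage transcripts, none of them a gene of the set. The classes over the 3 pools were naive CD4 (3213 cells), naive CD8 (1068), regulatory (641, by Foxp3), memory CD4 (748), memory CD8 (2530), cycling (147, by at least 3 of 16 cell-cycle genes) and 6781 other T cells outside these gates. The naive classes were free of the 8 memory genes by construction. The memory CD8 gate separated poorly: its 3 naive genes summed to 2387 CPM against 2637 CPM in naive CD8 cells, where memory CD4 cells had 997 CPM against 2432 CPM in naive CD4 cells.

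Idi1 and Sqle had 4 h ratios below 1 in all 7 classes. For Idi1 they ran from 0.370 (0.192 to 0.685) in regulatory cells, where the level was 75.3 CPM in control and 27.9 CPM at 4 h, to 0.866 (0.607 to 1.23) in memory CD8 cells. In naive CD4 cells Idi1 stood at 44.9 CPM in control and 26.2 CPM at 4 h, a ratio of 0.583 (0.423 to 0.797). Sqle ran from 0.389 in regulatory cells, on 7 molecules at 4 h and 15 in control, to 0.982 in naive CD8 cells, where each pool had 5 molecules. Cyp51 was below 1 in 6 of 7 classes, the exception being memory CD8 cells at 1.32 (0.826 to 2.13). In regulatory cells its level was 66.9 CPM in control and 26.1 CPM at 4 h, a ratio of 0.391 (0.197 to 0.743) on 47 molecules, too few for the rule. The other genes lower in the whole 4 h pool were less even, with Msmo1 below 1 in 5 of 7 classes, Insig1 in 4 and Mvk in 3. Elovl6 was not high at 4 h alone in the other T cells, with 18.1 CPM in control, 26.2 CPM at 4 h and 24.4 CPM at 8 h. How many of all genes lie below 1 in every class was not counted. These classes come from the same 3 pools, so they are not replicates of each other, and differences between classes were not tested. They are also parts of the 4 h and saline pools on which the set was chosen.

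**Figure D3:**
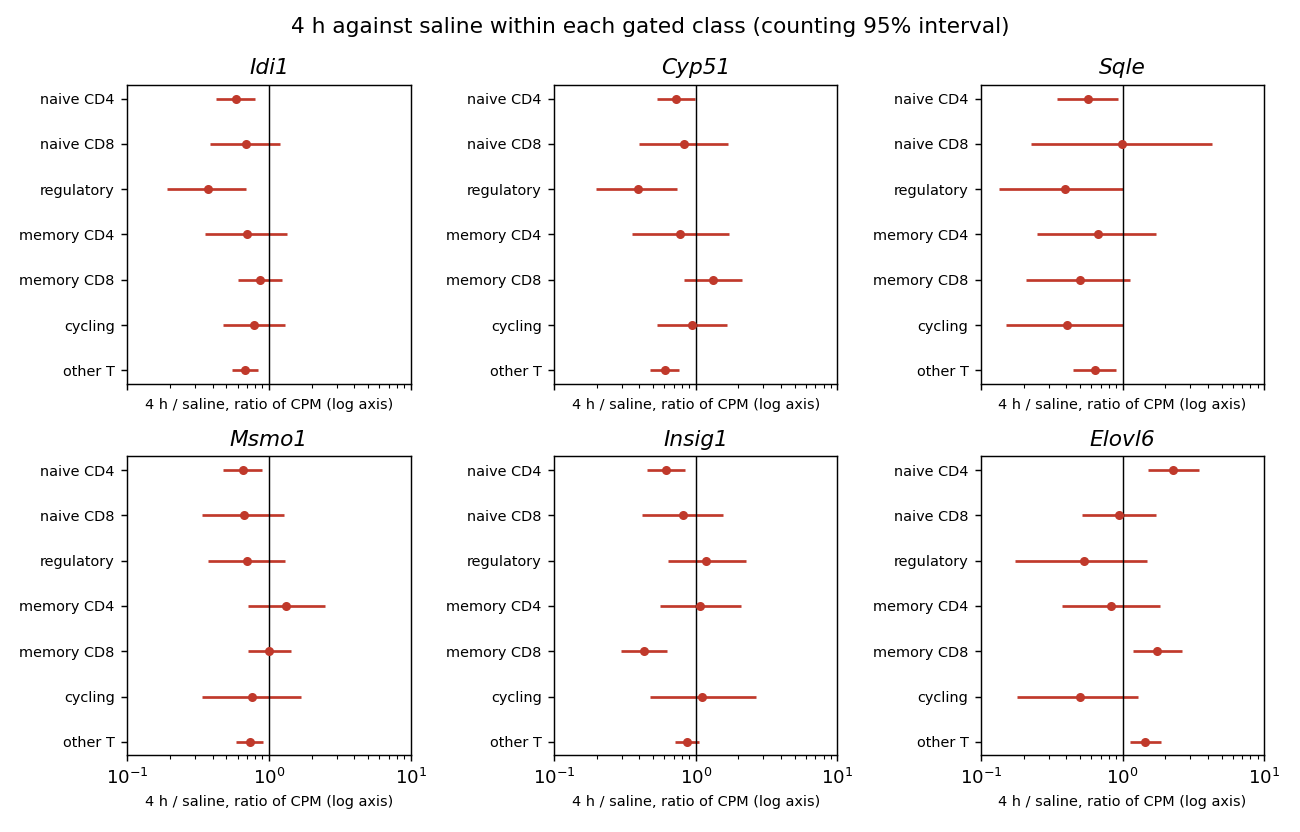
Ratio of CPM at 4 h to saline on a log axis within each gated class for 6 genes; points are ratios of summed molecules and bars 95% counting intervals. Idi1 and Sqle lie below 1 in every class shown, while Elovl6 lies above 1 in naive CD4, memory CD8 and other T cells only.

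In naive CD4 cells 5 of the 6 genes that were lower in the whole 4 h pool were lower too, Mvk having too few molecules there. Of 28 genes with enough molecules there, 6 were lower (Idi1, Sqle, Cyp51, Msmo1, Insig1 and Elovl5) and 1 higher, beside 2.44% lower and 3.61% higher of all 7872 genes. Msmo1 had a ratio of 0.651 (0.472 to 0.892) and Insig1 one of 0.615 (0.449 to 0.835). The higher gene was Elovl6, at 13.7 CPM in control and 31.1 CPM at 4 h, a ratio of 2.27 (1.51 to 3.48). By 8 h Idi1 stood at 59.9 CPM in these cells, which was above the control level as well (ratio 1.34, 1.05 to 1.71). That level came from 161 molecules in 101 cells, against 118 molecules in 91 cells in control. In the other 6 classes the 8 h ratio of Idi1 to saline was below 1. From 4 h to 8 h 6 genes were higher in naive CD4 cells (Idi1, Sqle, Nsdhl, Msmo1, Cyp51 and Srebf2) and Elovl6 was lower (0.407), beside 2.55% higher and 3.41% lower of 7908 genes.

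Memory CD8 cells shared Elovl6 and Insig1 with naive CD4 cells among the genes counted at 4 h. The fatty acid genes Acaca (2.10, 1.18 to 3.90), Elovl6 (1.76, 1.19 to 2.62) and Fasn (1.57, 1.15 to 2.16) were higher, and Insig1 was lower at 0.433 (0.295 to 0.628). That makes 3 higher and 1 lower of 26 genes, beside 2.94% higher and 2.28% lower of all 8054 genes. Fasn went from 25.1 CPM in control to 39.5 CPM at 4 h, and Insig1 from 34.7 CPM to 15.0 CPM. Idi1 and Msmo1 had ratios of 0.866 and 1.01 in these cells. Sqle stood at 7.01 CPM in control and 3.49 CPM at 4 h there, on 19 and 10 molecules. In naive CD4 cells Acaca went from 8.75 to 11.5 CPM and Fasn from 23.2 to 31.1 CPM, neither of them counted. Whether the 2 classes differ was not tested. Regulatory cells had enough molecules for only 10 genes, of which Idi1 and Elovl5 (0.690, 0.524 to 0.906) were lower and Stard4 (1.80, 1.02 to 3.28) higher, beside 4.22% lower and 3.83% higher of 3912 genes.

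Levels of the set were also compared between classes over the 3 pools, and these comparisons were not what the set was chosen on. Here a gene was counted when both classes together held at least 50 molecules over the 3 pools, the summed ratio was at least 1.5-fold with an interval leaving out 1, and all 3 pools lay on the same side. Cycling cells against naive CD4 cells had 11 of 31 genes higher and 1 lower, beside 18.8% higher and 22.8% lower of all 8971 genes. Cycling cells are larger, with a median of 8141 molecules against 2373 in naive CD4 cells, and CPM is relative to that total. They were gated before lineage and memory state, so the class mixes these. The memory genes summed to 2582 CPM in cycling and 0 CPM in naive CD4 cells, and 5 regulatory cell markers to 595.8 and 46.5 CPM. Division cannot be told apart from lineage or memory state in this comparison. The median log2 ratio was 0.22 over the set and -0.10 over all genes. With each cell weighted equally 6 of the 31 genes were higher and 3 lower, and Idi1, Fdft1, Cyp51, Nsdhl and Acaca were no longer counted. The share of all genes is given for the main setting only. TMM scaling ended the calls of Fdft1, Cyp51 and Nsdhl, raw molecules those of Idi1, Fdft1 and Nsdhl, and stricter gates that of Nsdhl.

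The higher genes of cycling cells came from the mevalonate, sterol and fatty acid routes. Pmvk was at 15.1 CPM against 5.93 CPM (ratio 2.55, 1.43 to 4.40), Acat2, a cytosolic thiolase, at 1.75 (1.25 to 2.40) and Idi1 at 1.62 (1.28 to 2.04). In the sterol route Ebp, which shifts the sterol double bond, stood at 87.7 CPM against 41.9 CPM, a ratio of 2.09 (1.68 to 2.60), with 1.95, 2.01 and 2.33 in the control, 4 h and 8 h pools. Nsdhl (1.73), Fdft1, the squalene synthase (1.53), and Cyp51 (1.52) were also higher, and so was Stard4 (1.64). Scd2 stood at 125.5 CPM against 51.9 CPM (2.42, 2.0 to 2.90), Fads1 at 2.17 (1.42 to 3.24) and Acaca at 1.93 (1.18 to 3.07). In each pool the ratio of Scd2 was above 1, at 3.45 in control, 2.30 at 4 h and 1.71 at 8 h.

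Acss2 was the lower gene, at 14.4 CPM in cycling and 39.7 CPM in naive CD4 cells, a ratio of 0.362 (0.214 to 0.574), and it was below 0.5 in every pool. The 5 regulators all had summed ratios below 1, though none was counted. The median over all genes lay below 1 as well (log2 -0.10). Srebf2 stood at 112.7 CPM against 163.8 CPM (0.688, 0.576 to 0.815) and was below 1 in all 3 pools, which is just short of the 1.5-fold rule. Scap was at 0.779, Insig1 at 0.762, Insig2 at 0.714 and Srebf1 at 0.883, each with an interval that holds 1. Relative to their total, 11 of 31 genes were counted as higher in cycling cells, beside 18.8% of all genes. With each cell weighted equally 6 of them stayed higher, and the share of all genes under that setting was not counted. None of the 5 regulators was counted as higher in CPM. Per cell the 5 regulators summed to 2.10 molecules in cycling and 0.764 in naive CD4 cells.

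**Figure D4:**
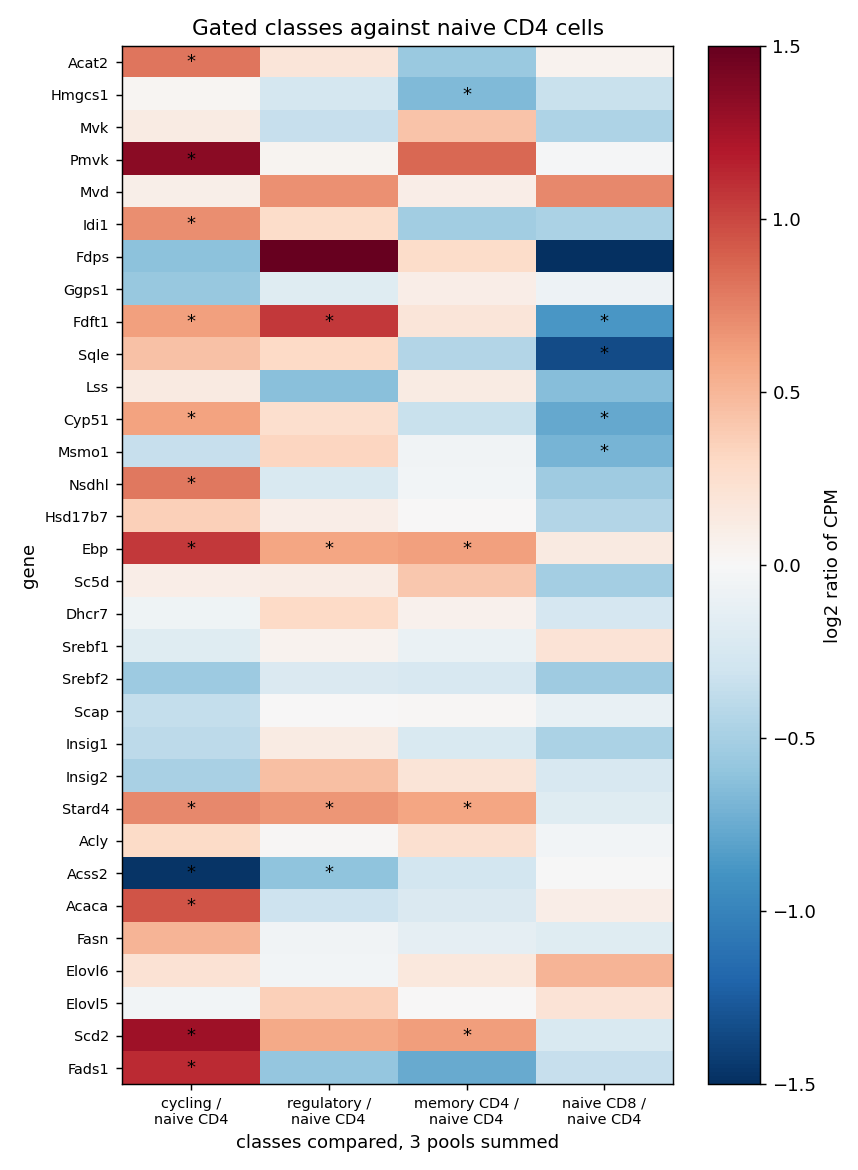
Log2 ratio of CPM of cycling, regulatory, memory CD4 and naive CD8 cells to naive CD4 cells, molecules of the 3 pools summed, for 32 genes; red is higher, blue lower, the colour scale ends at 1.5 either way, and a star marks genes past the 1.5-fold rule in all 3 pools. The cycling column holds 12 stars, and the 4 stars of the naive CD8 column (Fdft1, Sqle, Cyp51, Msmo1) all lie in the sterol route.

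Naive CD8 cells differed from naive CD4 cells in the sterol route. Of 31 genes 4 were lower and 0 higher, beside 4.71% lower and 3.56% higher of all 8913 genes. All 4 belong to the sterol route: Sqle at 7.0 CPM against 17.8 CPM (0.394, 0.227 to 0.645), Fdft1 at 9.72 CPM against 17.8 CPM (0.547, 0.342 to 0.841), Cyp51 at 22.2 CPM against 37.8 CPM (0.587, 0.434 to 0.782) and Msmo1 at 22.6 CPM against 36.5 CPM (0.618, 0.458 to 0.823). Sqle was lower in each pool, with ratios of 0.300 in control, 0.518 at 4 h and 0.427 at 8 h. Of the 10 sterol route genes 9 were below 1, Ebp being the exception (1.1), and their median log2 ratio was -0.59 beside -0.04 for all genes. Srebf2 was also below 1 in all 3 pools, at 112.8 CPM against 163.8 CPM (0.688, 0.604 to 0.783). The fatty acid genes had a median of -0.02 and summed to 424.3 CPM against 409.5 CPM. Median depth was 2362.5 molecules in naive CD8 and 2373 in naive CD4 cells. The low sterol level was not particular to naive CD8 cells. The 10 genes summed to 190.6 CPM in naive CD8, 177.0 CPM in memory CD8 and 266.0 CPM in naive CD4 cells.

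Regulatory cells had 3 genes higher and 1 lower than naive CD4 cells, beside 10.1% higher and 5.27% lower of all 8905 genes, which is near the background. Fdft1 stood at 37.1 CPM against 17.8 CPM (2.09, 1.52 to 2.84), with ratios of 3.50, 2.07 and 1.16 in the control, 4 h and 8 h pools. Stard4 (1.59, 1.24 to 2.02) and Ebp (1.51, 1.2 to 1.89) were higher as well, and Acss2 was lower (0.660, 0.468 to 0.909). Memory CD4 cells shared 2 of these, Ebp (1.53, 1.24 to 1.88) and Stard4 (1.5, 1.19 to 1.88), and had Scd2 higher (1.54, 1.28 to 1.85) and Hmgcs1 lower (0.631, 0.469 to 0.837), beside 9.33% higher and 4.65% lower of 8971 genes, again near the background. These 2 comparisons share the naive CD4 cells. Scaling by trimmed mean of M-values (TMM) shifts all genes by -0.19 (log2) in the first and -0.18 in the second, and then Ebp and Stard4 fall short of 1.5-fold in both (1.32 and 1.39, then 1.35 and 1.33). No gene of the set was counted between memory and naive CD8 cells, beside 2.79% higher and 1.67% lower of 9023 genes. Memory CD8 cells gated instead by at least 2 Ccl5 molecules, a gate added after the poor separation was seen, had 5 of 31 genes lower (Acat2, Hmgcs1, Cyp51, Srebf2 and Elovl6) and 0 higher than naive CD8 cells without Ccl5, beside 4.99% lower and 4.45% higher of 9463 genes.

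Of 45 further genes of sterol and fatty acid handling outside the set, 39 had enough molecules at 4 h, and 5 were higher and 4 lower than saline, beside 3.92% higher and 1.54% lower of all 10266 genes. Among 6 measured genes of sterol esterification and efflux 1 was counted as higher at 4 h. That gene, Abca1, the pump that exports cholesterol, stood at 22.6 CPM in control, 32.8 CPM at 4 h and 23.4 CPM at 8 h, a 4 h ratio of 1.45 (1.25 to 1.68) and an 8 h to 4 h ratio of 0.715 (0.619 to 0.827). It was highest in the 4 h pool, where Idi1 and Sqle were lowest. Pdss1, which builds the isoprenoid tail of ubiquinone, had a 4 h ratio of 1.42 (1.04 to 1.94). Of the fatty acid genes outside the set, Acsl3, an acyl-CoA synthetase, had a 4 h ratio of 0.649 (0.479 to 0.874). Acot7, an acyl-CoA thioesterase, was at 1.32 (1.1 to 1.60) at 4 h and 1.36 (1.13 to 1.65) at 8 h. Of 14 measured genes of sterol regulation and synthesis outside the set, 3 were lower and 0 higher at 4 h, and 1 lower at 8 h, beside 1.54% and 3.92% of all genes at 4 h and 1.9% at 8 h. Of the 14, 12 had 4 h ratios below 1, as had 4602 of all 10266 genes.

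Scd1, the gene of the set that T cells all but lacked, was found in the few B cells of the same capture, taken by a gate that was set after this was seen. Over 390 cells of that gate it had 697 molecules, against 8 molecules over 15128 T cells. Its relative Scd2 had 125 and 2449 molecules in the same cells.

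**Figure D5:**
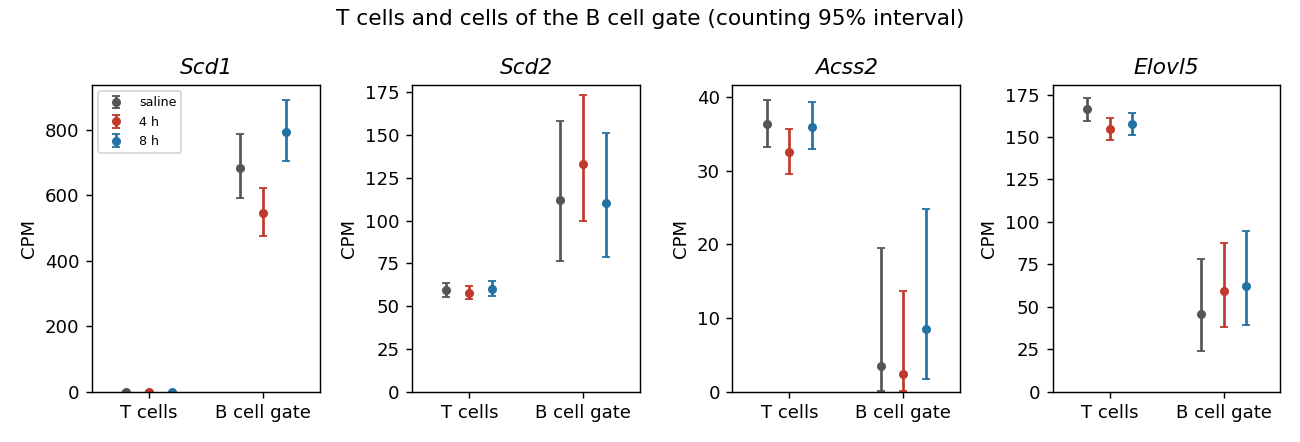
Level (CPM, linear axis from 0) of 4 genes in T cells and in cells of a B cell gate of the same capture, by pool, with 95% counting intervals. Scd1 lies near 0 in T cells (8 molecules) and between 546.3 and 794.0 CPM in the B cell gate, and Acss2 and Elovl5 are higher in T cells.

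The 4 h values came with a higher neutrophil, memory and cycling marker level in the same pool, as given above. With the mix of classes held fixed, the 4 h ratios were 0.668 for Idi1, 0.577 for Sqle and 1.43 for Elovl6, and without cycling cells they were 0.661, 0.592 and 1.48. A fixed mix leaves shifts inside a class in place. In the other T cells the memory genes summed to 823.6 CPM in control and 1128 CPM at 4 h. The part of that shift in these values was not tested. Of the 140 neutrophil molecules at 4 h, 124 lay in memory CD4 cells. That class held 18 of 365 Idi1 molecules and 9 of 123 Sqle molecules at 4 h. The part of the neutrophil transcripts in these values was not tested.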

How the data were processed

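Spleen T cells of 3 tagged pools of 3 mice were measured in 1 capture. The authors processed the reads with the BD WTA Multiplex Rhapsody Analysis Pipeline 1.9.1 (GRCm38, GENCODE M19), per the file headers, which do not name its aligner. The deposited table holds molecule counts (unique molecular identifiers after the authors' error correction), and the raw molecule counts before it were used as an alternative. Of 17299 putative cells, 1063 multiplets, 60 undetermined cells and 2 cells of an unused tag were left out; no doublet caller was run within pools. Cells had at least 200 genes and under 25% mitochondrial molecules (16123 kept). T cells had a Cd3d, Cd3e or Cd3g molecule, at most 1 B cell molecule and no Lyz2. Molecules were summed per pool and class, divided by their total (CPM), and compared as ratios with exact conditional-binomial 95% intervals; 3 molecules correspond to at most 0.220 CPM per pool. With 1 pool per treatment no test was made. The counting rule was also run on simulated counts with counting error alone. That simulation held no spread between cells, mice or pools, so it cannot speak to such spread. Positions come from GENCODE M21 on GRCm38, promoters from RefSeq, both by symbol. All 34 members were accounted for; outside them up to 5 changed genes of the other lists were to be named, of which 4 are, and some genes of these lists are not reported here. The members and lists were chosen with earlier results of these data known. Alternatives were TMM scaling (edgeR 4.0.16, R 4.3.3), other totals, filters, gates and minimum counts, equal cell weights, a fixed class mix, raw molecules and thinned cells. Software was Python 3.11.15, numpy 2.4.6, pandas 2.3.3, scipy 1.17.1 and matplotlib 3.10.9.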

Additional observations from a re-analysis of the deposited data

How the results depend on the processing

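The genes counted as lower at 4 h numbered between 5 and 7 under every alternative tried, the lowest count coming with a minimum of 200 molecules, which Mvk does not reach; no ratio of a counted gene reversed. With each cell weighted equally 1 gene was higher at 4 h (main 2), 0 at 8 h (main 1), 6 higher and 3 lower in cycling cells (main 11 and 1), 0 lower in regulatory cells (main 1) and 1 higher in memory CD4 cells (main 3). With raw molecules 1 gene was higher at 4 h, 2 were lower at 8 h against 4 h (main 1), 0 lower in regulatory cells, 1 higher and 2 lower in memory CD4 cells (main 3 and 1), and 1 higher in naive CD8 against naive CD4 cells (main 0). With TMM scaling 3 were lower in cycling cells, 1 higher in regulatory cells (main 3), and 0 higher and 4 lower in memory CD4 cells. With stricter gates 2 were lower in cycling cells, 2 in regulatory cells, 4 in memory CD4 cells and 1 in memory CD8 cells (main 0). The Ccl5 gate, added after seeing the data, gave 5 lower in memory CD8 cells. Of the 4 genes lower in naive CD8 cells all stayed counted in each of the 24 values. Acaca at 4 h is the least settled of the time results, with ratios of 1.2 (equal weights) and 1.25 (raw molecules) that miss the rule. No paired analysis was possible because each treatment is 1 pool. Depth limits the classes: regulatory and cycling cells gave 1642332 and 1322556 molecules in all.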

Other observations

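Scd1 and Scd2, genes on chromosome 19 that both encode stearoyl-CoA desaturases, the enzymes that make monounsaturated fatty acids, differed in where they were found. A B cell gate (at least 2 molecules over Cd79a, Cd79b and Ms4a1, no Cd3d, Cd3e or Cd3g, and outside the T cells), set after Scd1 was seen to be near 0 in T cells, held 390 cells of the same capture. In these cells Scd1 stood at 683.1 CPM in control (111 cells), 546.3 CPM at 4 h (141 cells) and 794.0 CPM at 8 h (138 cells), and 74.9% of the 390 cells had a molecule. In T cells it stood at 0.294, 0.216 and 0.0721 CPM, from 4, 3 and 1 molecules. The median depth was 2180 molecules in the B cell gate and 2536 in T cells. Scd2 was present in both, at 119.7 CPM against 59.2 CPM, a ratio of 2.02 (1.68 to 2.42, counting error only).

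Other genes of the set went the opposite way. Acss2 stood at 4.79 CPM in the B cell gate against 34.9 CPM in T cells (ratio 0.137, 0.0444 to 0.321), Elovl6 at 4.79 CPM against 21.3 CPM (0.224, 0.0726 to 0.525) and Elovl5 at 56.5 CPM against 159.5 CPM (0.354, 0.269 to 0.457). Srebf2 was at 203.0 CPM against 130.9 CPM (1.55, 1.35 to 1.78). Idi1, Sqle and Cyp51 had ratios of 0.909, 0.966 and 1.07, each with an interval that holds 1. These genes were picked after their values were seen.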
